A study of Mus musculus with 26 samples.

Results

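The windows described here are the stretches of the mouse genome in which sperm carries the most CpG positions that could be measured and almost none of them methylated. The autosomes were divided into windows of 1000 bp, and a window was kept when at least 20 distinct positions in it had 10 or more reads in each of the 20 offspring libraries and when its methylation, taken as methylated reads over reads in each mouse and averaged over the 20 mice, was under 20%. A position is a cytosine of a CpG on 1 strand, so a CpG measured on both strands gave a pair of positions. This left 3636 windows of the 106789 windows with any such position. They made up 3.43% of the 106004 autosomal windows but held 105151 of the 460239 positions, or 22.8%. Among the 3658 autosomal windows with 20 or more positions, 99.4% were under the limit and 22 were not. The X chromosome had 1 window with 20 or more positions, and it was not under the limit. The windows were thus selected on their measured methylation and read coverage in the offspring, and the low level itself is given below as a description, without a test.

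The study sequenced sperm DNA of 26 male mice by reduced representation bisulfite sequencing (RRBS), in which fragments from CpG-rich DNA are enriched, unmethylated cytosines are converted, and the fraction of reads still showing cytosine at a CpG is its methylation. It asked whether culture and transplantation of spermatogonial stem cells (SSCs), the stem cells from which sperm arise, leave changes in the sperm of the recipients and of their descendants. SSCT F0 (n = 3) were infertile W/W-v males of the WBB6F1/J background, carrying mutant Kit alleles. Their testes had received SSCs of neonatal DBA/2J mice grown as cell lines, so that sperm should stem from the donor cells. Control F0 (n = 3) were untreated males of DBA/2J, the strain of all controls, and both F0 groups were 16 to 18 months old. Host strain and transplantation thus differ together between the F0 groups. The offspring were all 3 months old: control F1 (n = 5), SSCT F1 (n = 5) sired by transplanted males on control females, SSCT F2/M (n = 5) born to SSCT F1 females mated with control males, and SSCT F2/P (n = 5) sired by SSCT F1 males on control females. Controls were bred for 1 generation only, so the F2 mice were compared with control F1.

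Some properties of the libraries bear on everything that follows. The sample titles, used here, and the clustering diagram of the study give the 4 sets of 5 offspring libraries different group names. The treatment label adds another conflict, since it reads WT for the sets titled control F1 and SSCT F2/M and SSCT for the other offspring, so that by this label the comparison of SSCT F2/M with control F1 is one of WT with WT. A difference between sets does not depend on the names, and the test over all 4 sets is free of them, but the name attached to a set in the paired comparisons is that of the titles only. Between 45616751 and 87707577 reads fell on CpG positions per library. The 3 SSCT F0 libraries were made from less DNA than the 100 ng of the rest. Replicates 1, 2 and 3 covered 1977100, 1123580 and 305964 positions, against 1995496 to 2232483 in the other libraries. Of the 3636 windows, SSCT F0 replicate 3 had reads for 2493, with a median of 7 positions each, SSCT F0 replicate 2 for 3629 with a median of 22, and SSCT F0 replicate 1 for all 3636. Results on SSCT F0 are therefore given with and without those libraries. Nothing in the labels says which mice share a litter, sire or cell line, so F test and permutation p-values measure the spread between these mice. The chi-square p-values used for calling rest on read counts and leave the spread between mice out.

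CpG islands are short regions in which the CpG dinucleotide is frequent, whereas it is rare elsewhere in mammalian DNA because methylated cytosines mutate readily. Most islands lie at gene starts and stay free of methylation in nearly all cells. In the male germ line the rest of the genome is methylated before birth, imprinted regions that will be methylated on the maternal allele stay free, and most of the paternal pattern is erased again after fertilisation. An island in sperm is thus the place where a gain of methylation would have the lowest background against which to be seen.

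The sequences below show what such a window looks like at the level of bases. They are the 300 bases around a gene start (GRCm38.p6, RefSeq, gene strand, 250 bases before the start and 50 after), and all 61907 measured positions that fell into promoters of the table lay on a CG in those sequences, which ties the coordinates of the reads to this build. Capitals in the first 4 mark each CpG with at least 1 measured position.
Alad, a member window, chr4:62519860-62520159, minus strand: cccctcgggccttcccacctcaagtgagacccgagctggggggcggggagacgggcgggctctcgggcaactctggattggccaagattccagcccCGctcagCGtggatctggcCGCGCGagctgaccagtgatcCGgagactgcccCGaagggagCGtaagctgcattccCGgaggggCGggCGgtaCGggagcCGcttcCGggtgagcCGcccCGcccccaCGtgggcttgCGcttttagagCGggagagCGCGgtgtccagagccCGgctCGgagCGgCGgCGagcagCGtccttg
Tmem131, a member window, chr1:36939478-36939777, minus strand: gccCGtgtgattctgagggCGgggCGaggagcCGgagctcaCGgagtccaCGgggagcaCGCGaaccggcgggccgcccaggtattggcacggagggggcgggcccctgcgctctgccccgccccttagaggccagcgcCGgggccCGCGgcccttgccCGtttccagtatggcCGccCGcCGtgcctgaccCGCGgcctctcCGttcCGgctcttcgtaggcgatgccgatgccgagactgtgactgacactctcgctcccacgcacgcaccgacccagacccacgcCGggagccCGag
Oga, a member window, chr19:45783504-45783803, minus strand: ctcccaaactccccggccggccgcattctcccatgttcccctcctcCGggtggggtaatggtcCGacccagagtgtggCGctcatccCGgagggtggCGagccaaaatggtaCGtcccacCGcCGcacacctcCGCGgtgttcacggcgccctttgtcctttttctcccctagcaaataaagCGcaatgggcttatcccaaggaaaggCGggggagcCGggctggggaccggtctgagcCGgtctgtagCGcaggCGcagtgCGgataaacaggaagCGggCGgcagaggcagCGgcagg
Gm33240, a methylated start site shown for contrast, chr13:57444165-57444464, plus strand: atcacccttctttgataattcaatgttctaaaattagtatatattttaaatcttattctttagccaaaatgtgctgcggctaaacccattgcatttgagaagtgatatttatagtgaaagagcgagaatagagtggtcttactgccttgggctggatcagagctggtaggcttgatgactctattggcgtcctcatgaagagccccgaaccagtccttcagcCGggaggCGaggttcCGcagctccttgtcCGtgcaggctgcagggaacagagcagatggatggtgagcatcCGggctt
The Alad promoter, whose gene encodes an enzyme of haem synthesis, held 33 CpGs, 27 of them in capitals. Its 45 measured positions averaged 1.29% and none exceeded 8.18%. In the Tmem131 promoter, 21 of 38 CpGs were measured and the 24 positions averaged 1.5%. The Oga promoter, of the gene for the enzyme that removes O-linked N-acetylglucosamine from proteins, had 20 of 26 CpGs measured, and its 22 positions averaged 1.53%. The Gm33240 start held only 9 CpGs. Its 7 measured positions were all at 94.9% or more, and its window, with 12 positions, stood at 97.5%. In the next pair, capitals mark only CpGs with a position over 20%.
9330151L19Rik, a member window, chr12:69196961-69197260, plus strand: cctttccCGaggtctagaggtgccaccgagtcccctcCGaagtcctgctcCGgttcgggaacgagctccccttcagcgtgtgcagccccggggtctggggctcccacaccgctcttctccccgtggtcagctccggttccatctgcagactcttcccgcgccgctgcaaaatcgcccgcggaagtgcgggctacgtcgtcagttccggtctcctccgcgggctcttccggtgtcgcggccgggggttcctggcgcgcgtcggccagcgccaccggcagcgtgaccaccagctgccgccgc
Ndufs6, just above the limit, chr13:73328433-73328732, minus strand: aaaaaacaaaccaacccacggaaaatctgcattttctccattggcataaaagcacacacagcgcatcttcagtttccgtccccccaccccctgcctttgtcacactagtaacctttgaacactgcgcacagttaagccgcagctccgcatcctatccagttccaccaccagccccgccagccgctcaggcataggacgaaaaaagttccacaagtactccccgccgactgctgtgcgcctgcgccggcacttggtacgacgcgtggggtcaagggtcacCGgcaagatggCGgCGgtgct
In 9330151L19Rik, 3 CpGs at the upstream edge were at 45.3, 47.2 and 50.2% while no other measured position exceeded 20%, and the window had a level of 4.97% over 32 positions. The first 2 of these CpGs belong to the window before. Ndufs6, which encodes a subunit of respiratory complex I, showed the opposite edge: the 3 CpGs at the downstream end carried 5 positions at 39.9 to 45.8%, and the window, with 31 positions at 29.1%, was not a member.

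The members formed a narrow group. Their median level was 1.57% (interquartile range 1.33 to 1.87%), from 0.65 to 16.9%. Of the 3636, 131 lay between 0.5 and 1%, 2861 between 1 and 2%, 610 between 2 and 5%, 17 between 5 and 10%, 11 between 10 and 15% and 6 between 15 and 20%. All autosomal windows had a median of 91.6%, with 31.9% of them under 20% and 55.5% at 80% or more. Just under the limit were chr17:39847001-39848000 at 16.9%, within the ribosomal RNA gene copy Rn18s-rs5, a window in Ston2 (chr12:91647001-91648000) at 16.1% and the start of Phf23 (chr11:69997001-69998000) at 15.9%. Just above it came Eif2s2 (chr2:154892001-154893000) at 24.8%, a window at Mapk4 at 28.7% and Ndufs6. No window with 20 or more positions lay between 16.9 and 24.8%, so the limit fell in a gap.

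The level of a typical member was close to what the assay reads as methylation in unmethylated DNA. Control DNA added to each library and known to be unmethylated read 0.542 to 1.22% methylated in the 20 offspring libraries, and methylated control DNA read 98.3 to 98.9%. Across the 20 offspring libraries the median level of the members was 1.46 to 1.53%. Its correlation with the reading of the unmethylated control, over 20 libraries that differ in depth and pool, was Pearson's r = -0.282 and Spearman's rho = -0.261, given as a description. Single positions were lower than windows: their median was 0.738%, 89.8% were under 5%, and 24803 of the 105151 were at 0 in all 20 mice. Members averaged 41.7 reads per position as a median (24.9 to 2901), and held 20 to 148 positions with a median of 26.

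The spread between mice was small, which a low level and many positions, both set by the rule, already favour. The SD over the 20 offspring had a median of 0.893 points in the members, against 2.97 points in sparser windows under 20% and 3.98 in all autosomal windows, and 99% of members had an SD of at most 2.26 points. Group means over all members, as mean ± SD, were 1.73 ± 0.0094% in control F1 (n = 5), 1.72 ± 0.0234% in SSCT F1 (n = 5), 1.72 ± 0.032% in SSCT F2/M (n = 5). SSCT F2/P (n = 5) had 1.7 ± 0.00943%. In control F0 (n = 3) the mean was 1.74 ± 0.0332% and in SSCT F0 (n = 3) 1.77 ± 0.112%. The 3 SSCT F0 mice had means of 1.78, 1.89 and 1.66% but medians of 1.51, 1.23 and 0.0%, so in that group mean and median parted. The ranges of the 4 offspring groups overlapped. These means weight each window equally. Summing all reads instead, which weights the deep windows described further on, gave 4.82% in control F1, 4.71% in SSCT F1, 4.39% in SSCT F2/M, 3.59% for SSCT F2/P, 5.71% in control F0 and 4.40% in SSCT F0.

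**Figure D1:**
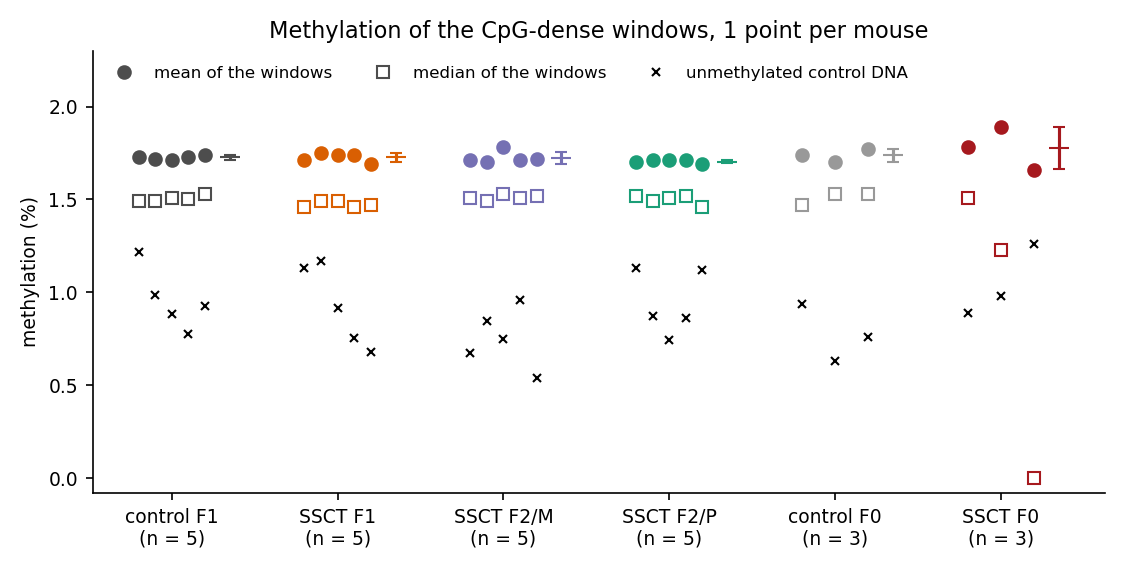
Methylation of the member windows (y axis, %) in each of the 26 mice by group (x axis), as the mean (filled circles) and median (open squares) of the windows, with the reading of unmethylated control DNA (crosses) and the group's mean ± SD of the window means (bars). Offspring means lie between 1.69 and 1.78%, above control DNA at 0.542 to 1.22%, and the medians of SSCT F0 spread from 0.0 to 1.51%.

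Most members stood alone: the 3636 windows formed 3362 runs of adjacent windows, of which 3105 were single, 244 had 2 windows and 11 had 3. The run of 6, chr17:39843001-39849000, had 537 positions and levels of 10.0 to 16.9%. It lay at the ribosomal RNA gene copy Rn18s-rs5 and took in adjacent windows in no gene span. The whole run is called the copy below. The run of 4, chr11:82930001-82934000, lay at Unc45b, a myosin chaperone gene of striated muscle, and its antisense transcript, with 161 positions at 1.64 to 2.6%. The longest run of 3 by positions was at Nr2f2 (chr7:70359001-70362000), which encodes an orphan nuclear receptor of development, with 131 positions at 1.09 to 2.12%. Members made up 2.86% (chromosome 10) to 4.25% (chromosome 11) of the windows of each autosome.

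Methylation rose over a few kilobases on either side. Neighbouring windows with reads had median levels of 1.97 and 1.91% at 1 kb before and after (n = 1696 and 1699), and 93.2 and 93.5% of them were under 20%. At 2 kb the medians were 4.65 and 3.72%, and at 3 kb 26.6 and 12.9%. At 4 kb they had reached 47.6 and 58.2%, with 43.0 and 46.9% of windows at 80% or more. Neighbours held few positions, a median of 7 at 1 kb and 3 at 3 kb, and only a small part of the genome is covered, so these curves describe the CpG-rich fragments near islands and not every base.

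**Figure D2:**
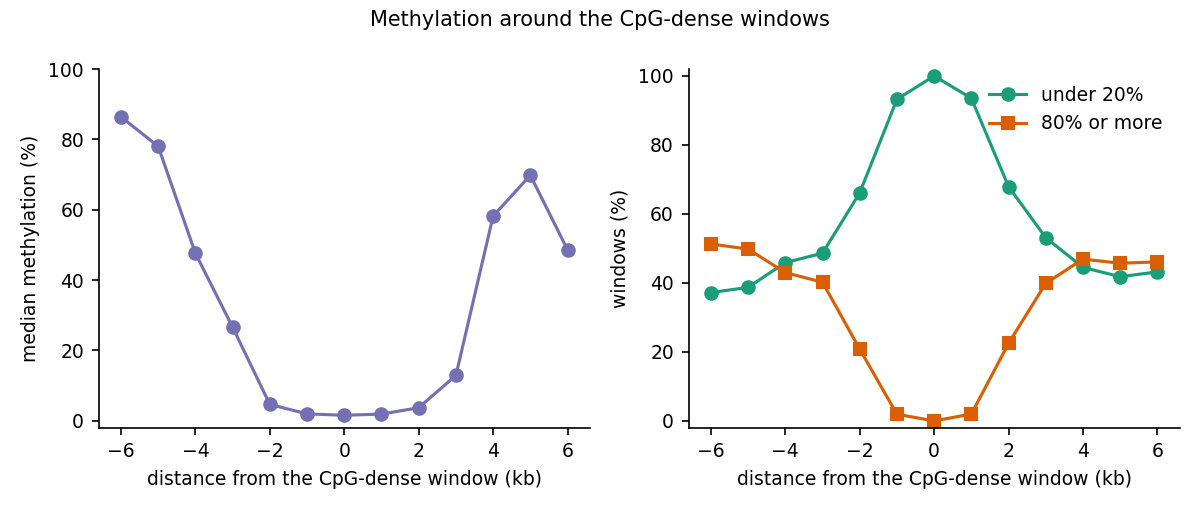
Median methylation (left, %) and share of windows under 20% or at 80% or more (right, %) by distance from a member window (x axis, kb), over the windows with reads. The median climbs from 1.57% in the members to 47.6 and 58.2% at 4 kb, and the share under 20% falls from 93.2 and 93.5% at 1 kb to 45.9 and 44.5%.

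Gene starts were frequent in these windows. A start site of the promoter table, which holds none for chromosome 18, lay in 2004 of the 3511 members on other autosomes, or 57.1%. The share was 25.7% of 29231 sparser windows that were also under 20%, 2.46% of 12864 windows at 20 to 80% and 1.19% of 56711 windows at 80% or more. Of the rest of these 3511, 1397 lay in a gene span and 110 in no gene span. For the 125 members on chromosome 18, start sites were not looked at. Their 2620 promoters, of 2320 genes, had a median of 29 CpGs in 300 bases and 67.3% G+C, against 21 CpGs and 62.0% in the sparser unmethylated windows, 4 CpGs and 50.3% in windows at 80% or more, and 7 CpGs and 53.0% over the 31396 autosomal promoters of the table. The number of CpGs is close to the rule, which asked for many positions, and is no separate result.

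Letters of common promoter elements were counted on both strands of the 300 bases. GGGCGG, the core of the GC box, was present in 77.6% of the members' promoters, in 65.5% of those in sparser unmethylated windows, in 10.4% of those at 80% or more and in 36.0% of all promoters. TATAAA was present in 3.82, 6.11, 15.6 and 13.6% in the same order. CCAAT was present in 30.3, 36.7, 33.5 and 37.3%. GGGCGG contains a CpG and TATAAA contains no G or C, so neither share is independent of base composition.

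Around the start sites that lie in members, mean methylation was lowest just after the start. The profile was not confined to the member windows. Positions far from a start can lie outside the member, where the limit of 20% did not have to hold. A position near several starts may be counted more than once. The 11566 positions in the first 100 bases after the start averaged 1.45%, and 0.00865% of them were over 20%. The mean rose in both directions to 2.98% in the bin farthest before the start (765 positions) and 3.57% in the bin farthest after it (1043 positions), where 1.31 and 2.88% of positions were over 20%.

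Genes of several functions were looked up, in lists chosen with earlier results of these data known. Over all 25748 genes of the promoter table, 2320 had a start in a member, which is 9.01%, or 21.0% of the 11072 with a measured start window. Of those 11072, 10184 had a start window under 20% and 598 at 80% or more. Chromatin regulators had 6 members of 15 genes in the table (14 measured), signalling ligands 3 of 6 (6 measured), developmental regulators 3 of 16 (13 measured), housekeeping genes 1 of 11 (5 measured), meiosis and germline genes 1 of 22 (14 measured) and spermiogenesis genes 0 of 13 (2 measured). In each list every measured start window was under 20%. Starts without a position at 10 or more reads in all 20 libraries, such as most of the spermiogenesis genes, are not described by these counts.

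Among the chromatin regulators, Dnmt3a (chr12:3807001-3808000), which encodes a methyltransferase that places new methylation in germ cells, had 59 positions at 1.35% with a range of 0.24 to 2.23% over the 20 offspring. Tet2, whose product oxidises methylcytosine, had 26 positions at 1.08% (0.0 to 2.86%). The polycomb subunit genes Eed and Suz12 had levels of 1.05% (29 positions) and 1.56% (26 positions). Kmt2a and Kmt2d, genes of histone H3 lysine 4 methyltransferases, had levels of 1.77% (40 positions, 0.164 to 4.45%) and 1.8% (20 positions). None of these 6 reached 5% in any offspring.

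The developmental regulators were alike, with 1 exception. The kidney transcription factor genes Pax2 and Six2 had 48 positions at 1.76% (chr19:44756001-44757000) and 41 positions at 1.45%, and Foxa2, a regulator of endoderm, 22 positions at 1.45%. Another Pax2 window, chr19:44746001-44747000, stood at 8.33% (5.41 to 13.9%), with 3 of its 21 positions over 20% and 16 under 5%. The signalling ligands were Jag1 (33 positions, 2.15%) and Dll1 (30 positions at 2.47% and 27 at 1.18%), both ligands of Notch receptors, and Wnt3a (22 positions, 1.41%). The translation factor gene Eef1a1 had 27 positions at 2.18% and ranged from 0.0 to 6.06%. Tdrd1, which acts in the piRNA pathway that silences transposons in male germ cells, had 20 positions at 2.69% and ranged from 0.711 to 10.1%.

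A second, small kind of member had a higher level, and 34 members were at 5% or more. In 27 of these at least 1 position exceeded 20%, and in 18 the median position was still under 5%. Both held in 16 windows, in which a few methylated positions stood among mostly unmethylated ones. Over all members, 147 positions in 57 windows exceeded 20% and 28 positions in 18 windows exceeded 50%. Rap1a, a small GTPase gene, gave the sharpest case. In the window chr3:105801001-105802000 it had 43 positions at a mean of 12%. Its 4 positions between 105801284 and 105801295 stood at 93.2 to 95%, while 38 of the others were under 5% and none exceeded 8.77%. In control F0 mice, which played no part in choosing the windows, those positions read 100, 91.0 and 93.8%.

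Single positions with high methylation also occurred. In Ltv1, a gene of ribosomal subunit assembly, position 13192020 of chromosome 10 was at 95.9% (78.6 to 100%) in a window whose median position was 0.817%. In Alad, whose promoter is printed above, position 62519069 of chromosome 4 was at 81.5% (61.2 to 100%), 840 bases from the start. A second position within 22 bases of it was at 30.3%, and 42 of the 49 positions of the window, which had a level of 4.48%, were under 5%. Phf23, which encodes a PHD finger protein, had position 69997761 at 89.6% and position 69997925 at 60.8%, 299 and 463 bases from the start, with 18 of 25 positions under 5%. In the non-member Eif2s2, of translation initiation, 8 of 23 positions within 51 bases were at 48.0 to 53.2% and the rest averaged 3.00%.

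Phf23 had the largest SD of all members, 6.19 points. Its levels were 11.3, 12.3, 31.8, 14.1 and 20.5% in control F1, 20.2, 10.3, 9.5, 13.5 and 10.8% in SSCT F1, and 15.1, 28.1, 11.6, 16.4 and 20.8% in SSCT F2/M. SSCT F2/P had 15, 7.4, 11.9, 19.6 and 17%. In control F0 they were 13.6, 10.3 and 14.4%. Every group overlapped with every other. C1qbp (chr11:70982001-70983000), the gene of a mitochondrial matrix protein, had a mean of 10.3% and an SD of 5.02 points. Its levels were 5.4, 11.6, 4.42, 7.71 and 3.51% in control F1 and 15.5, 16.9, 8.13, 10.7 and 14.4% in SSCT F1. SSCT F2/M mice had 4.27, 1.98, 9.69, 18.9 and 13.6%, those of SSCT F2/P 4.92, 14.9, 14.4, 14.3 and 11%. SSCT F1 was high in most mice and control F1 low, with overlap, and 2 of 3 control F0 mice were also low, at 2.33, 6.07 and 14.1%.

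A further kind of member was set apart by its reads. The median member had 41.7 reads per position, and 13 had over 200. The windows of the ribosomal RNA gene copy on chromosome 17 had 1410 to 2646, and a window in Gm36876 (chr11:109011001-109012000) had 2901. Ribosomal RNA genes are known to be present in many copies, and how reads of the copies were placed was not tested. This run on chromosome 17 also held the 3 members with the most positions, with 148, 116 and 89. Only the last of them lies in an annotated gene span, that of Rn18s-rs5 and AY036118. The window with 148 positions, chr17:39845001-39846000, had levels of 18.6, 17.9, 12.4, 15.9 and 14.3% in control F1 and 10.6, 9.49, 17.4, 25 and 15.5% in SSCT F1. SSCT F2/M had 17.7, 7.12, 18.7, 7.77 and 16.2%, and SSCT F2/P 7.25, 17.4, 6.62, 8.30 and 11.5%. The levels in control F0 were 24.2, 9.51 and 20.9%, and in SSCT F0 15.3, 13.4 and 9.53%. Group means were 15.8 ± 2.55, 15.6 ± 6.2, 13.5 ± 5.6 and 10.2 ± 4.43% (SD, n = 5 each) in the 4 offspring groups in this order, and all groups overlapped. Within SSCT F2/M the mice ranged from 7.12 to 18.7%.

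Other deep windows moved with this one from mouse to mouse. Over the 20 offspring, Pearson's r with chr17:39845001-39846000 was 0.924 to 0.991 in the other 5 windows of the copy, which share its reads or units, 0.979 in Gm36876, 0.923 in chr17:36231001-36232000, 0.894 in Taco1, a gene of mitochondrial translation, 0.887 in chr3:5860001-5861000 and 0.764 in Zc3h7a. Over the 5 F0 libraries other than SSCT F0 replicate 3 it was 0.929 in Gm36876 and 0.955 in Taco1 but 0.0918 in chr17:36231001-36232000. Sfi1, with 538 reads per position, had r = 0.0121 over the offspring but 0.895 over the 5 F0 libraries, and Fli1, with 222 reads, a level of only 1.83%. The median r of all members was -0.000318, and 10 had an r over 0.8, the window itself included. In Taco1 the reads were uneven inside the window: 5 positions had 1583 reads each on average and a level of 11.8%, and the other 21 had 51.9 reads and a level of 1.52%. These r values describe mice of all groups together, and deep windows have less counting error.

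**Figure D3:**
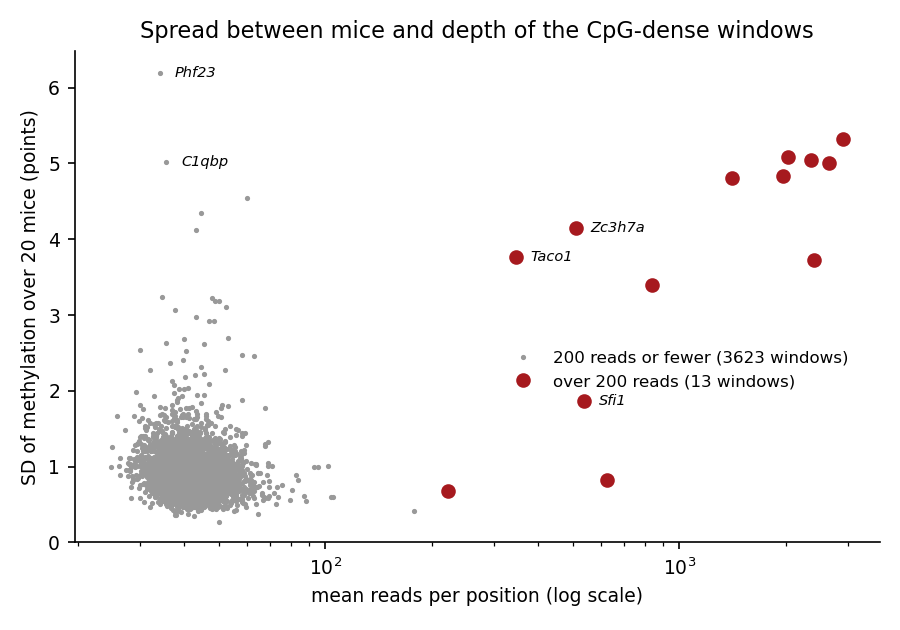
SD of methylation over the 20 offspring mice (y axis, points) against mean reads per position (x axis, log scale), 1 point per member window, with the 13 windows over 200 reads in red. Most deep windows, at 222 to 2901 reads, have a larger SD than the typical member at 0.893 points, while Phf23 and C1qbp reach SDs of 6.19 and 5.02 points at ordinary depth.

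In the offspring no member was called in any comparison. Reads of each window, methylated or not, entered a logistic model with group as its term, and a window was called when the Benjamini-Hochberg q over all windows was under 0.01 and the read-weighted difference over 25 points, the study's own limits. Over the 4 groups, 0 of 3636 members were called, against 1.08% of all 106789 windows. Against control F1, 0 members were called in each of the SSCT offspring groups. Of all windows 0.318% were called in SSCT F1, 0.25% for SSCT F2/M and 0.253% for SSCT F2/P. A window near 0 can reach a difference of 25 points only by a gain, so a smaller limit was also applied. At over 10 points the counts were again 0 in each, against 12.4% of windows over the 4 groups and 4.65, 4.42 and 4.43% in the 3 pairs. The largest difference of any member was 6.80 points over the 4 groups and also 6.80 with SSCT F1, and 6.23 and 6.39 with the F2 groups by the maternal and paternal line. The median absolute difference was 0.411, 0.372 and 0.372 points in the 3 pairs, against 1.62, 1.57 and 1.58 over all windows.

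The reads varied between mice more than a binomial model allows, with a median dispersion of 5.74 in members and 5.49 over all windows in the 4-group fit, so chi-square q values are too small. An F test scaled by this dispersion called 0 members in each offspring comparison at the same limits, against 0.000936% of windows over the 4 groups and 0% in each pair. At an unadjusted p under 0.05 it held 187 members (5.14%) over the 4 groups, against 13.2% of all windows. SSCT F1 had 189 (5.20% against 8.65%). SSCT F2/M had 162 (4.46% against 8.62%), while 179 were found for SSCT F2/P (4.92% against 8.61%). Members thus fell below the share of all windows in each comparison. Their shares were near the rate of 0.05 that this limit on p gives by chance, and those of all windows were above it.

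Counts of windows in which the 5 SSCT mice and the 5 control F1 mice did not overlap were 28 for SSCT F1 (0.77% of members against 0.44% of all windows). They were 31 for SSCT F2/M (0.853% against 0.47%), and SSCT F2/P had 34 (0.935% against 0.52%). The 3 comparisons share the control F1 mice. In windows without ties, chance alone would separate 5 against 5 mice at a rate of 0.00794. The windows with the largest difference among those without overlap are given next. They were picked because the groups do not overlap, so each reaches the smallest exact permutation p that 5 against 5 mice allow, 0.00794, two-sided, by the choice itself, and their F test q was 0.467 to 0.527.

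In SSCT F1 the largest was at the start of Fam229a (chr4:129491001-129492000, 23 positions). The control F1 mice had 0.0, 0.654, 0.192, 0.642 and 1.54%, and the SSCT F1 mice 3.79, 3.55, 6.30, 2.92 and 2.94%. The means were 0.605 ± 0.594 and 3.90 ± 1.40% (SD, n = 5), a difference of 3.30 points. The untreated control F0 mice had 0.117, 1.43 and 3.61%, the last within the SSCT F1 range. Nrip1 (chr16:76372001-76373000), which encodes a corepressor of nuclear receptors, had means of 0.982 ± 0.573% in control F1 and 3.09 ± 1.04% in SSCT F1. Control F0 had 1.33, 1.42 and 3.78% at Nrip1. A window in no gene span, chr12:26068001-26069000, had 4.01 ± 0.796 and 1.76 ± 0.829%, so the direction was not shared. Its control F0 levels were 5.14, 2.94 and 2.51%. With a minimum of 20 reads the differences were 2.09 points at Fam229a, 3.18 at Nrip1 and -1.20 in the last window, and with 5 reads Nrip1 had 0.897 points.

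In SSCT F2/M the start of Tkt (chr14:30549001-30550000, 21 positions), the transketolase gene of the pentose phosphate pathway, stood low. Control F1 had 1.14, 2.56, 2.14, 3.02 and 3.42%, and SSCT F2/M had 0.0914, 0.0, 0.155, 0.78 and 0.516%. The other SSCT offspring groups were low as well, with 0.758, 0.629, 0.515, 0.0 and 0.409% in SSCT F1 and 0.114, 0.0, 1.37, 0.42 and 0.296% in SSCT F2/P. Control F0 had 1.23, 0.50 and 0.28%, so all 3 untreated mice lay within the range of the SSCT offspring. The mouse at 1.23% was also inside the range of control F1. SSCT F0 had 2.17, 0.0 and 0.029%, with replicate 1, the best covered of the 3, inside the control F1 range. B130055M24Rik (chr7:127448001-127449000) had means of 4.57 ± 0.994 and 1.95 ± 0.798% in control F1 and SSCT F2/M, and Tdrd1 (chr19:56826001-56827000) 3.20 ± 0.987 and 1.04 ± 0.253% (SD, n = 5 each). Control F0 had 2.69, 1.92 and 5.14% at B130055M24Rik and 5.5, 6.99 and 0.714% at Tdrd1. The means in SSCT F1 and SSCT F2/P were 2.59 and 2.53% at B130055M24Rik and 4.02 and 2.48% at Tdrd1. With a minimum of 20 reads the difference shrank from -2.62 to -0.655 points at B130055M24Rik and grew from -2.15 to -5.23 points at Tkt.

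In SSCT F2/P the gene of the transcription factor Nfix (chr8:84785001-84786000) had means of 3.5 ± 0.736% in control F1 and 1.26 ± 0.80% in SSCT F2/P, and Nipbl (chr15:8445001-8446000), of the cohesin loader, 3.17 ± 1.51 and 0.927 ± 0.67%. Stimate (chr14:30825001-30826000) went the other way, from 1.27 ± 0.54 to 3.03 ± 1.05%. In control F0 the levels were 1.43, 2.26 and 2.53% at Nfix, 1.85, 1.2 and 0.658% at Nipbl and 2.84, 1.63 and 1.28% at Stimate. Means in SSCT F1 and SSCT F2/M were 2.54 and 1.86% at Nfix, 2.07 and 1.13% at Nipbl and 2.2 and 1.23% at Stimate. At other read minimums the difference moved from -2.24 to -1.01 points at Nipbl (5 reads) and from 1.76 to 3.86 points at Stimate (20 reads). All differences among these 9 windows were between 1.76 and 3.30 points in size.

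**Figure D4:**
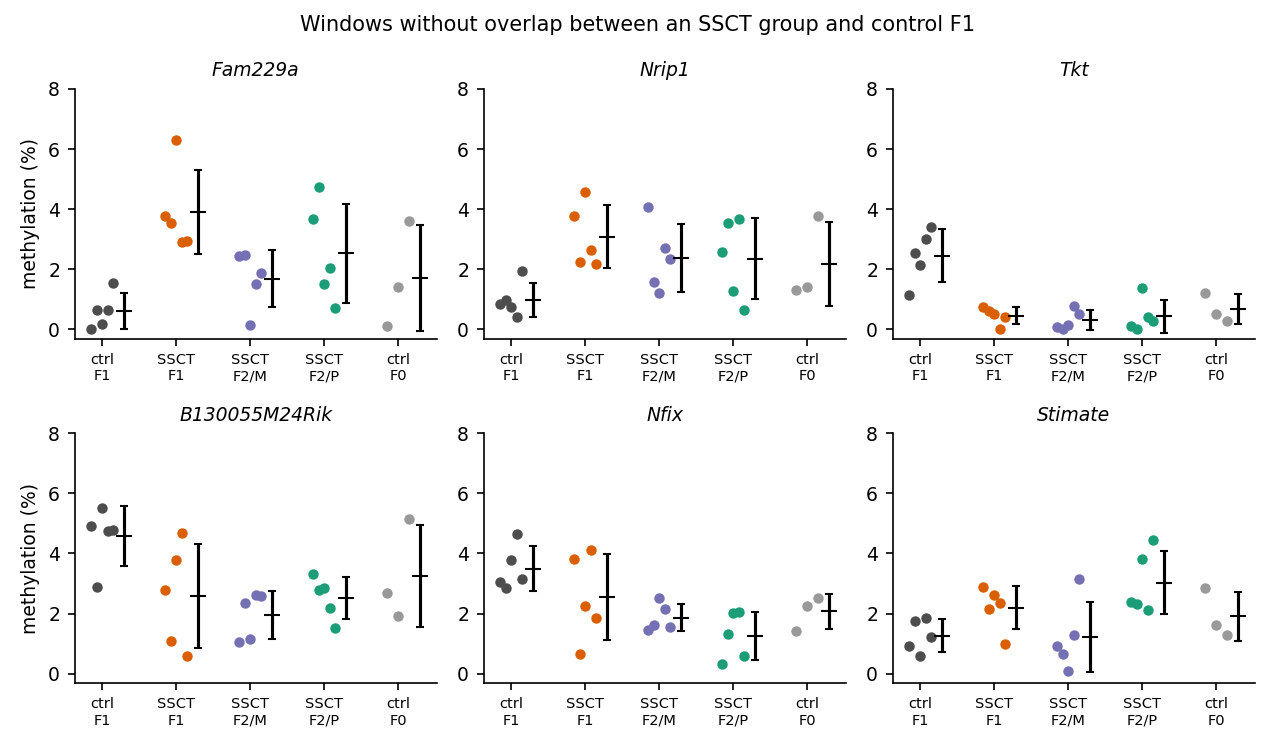
Methylation (y axis, %) of 6 member windows in the mice of the 4 offspring groups and control F0 (x axis), 1 point per mouse, with mean ± SD in black. The windows were chosen because 1 SSCT group did not overlap with control F1, as in Fam229a with 0.0 to 1.54% against 2.92 to 6.3%, and all levels stay under 8%.

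Age was compared in untreated males, control F0 at 16 to 18 months against control F1 at 3 months. No member was called at 25 or at 10 points, against 0.845 and 6.96% of the 141582 windows tested, and the largest difference was 6.38 points. The F test called 0 members, against 0% of all windows, and at an unadjusted p under 0.05 it held 199 (5.47% against 7.97%). Chance separates 3 against 5 mice more often than 5 against 5, in windows without ties at a rate of 0.0179 in each direction. The groups did not overlap in 143 members, or 3.93%, against 2.09% of all windows. The share of members was thus near the chance rate of both directions together. Those with the largest difference were Grip1, of a scaffold protein at synapses, with 6.26, 3.75, 3.24, 4.63 and 4.72% in control F1 and 3.02, 0.355 and 0.396% in control F0 (chr10:119454001-119455000), G730013B05Rik (chr16:50529001-50530000) with a mean of 0.449% in control F1 and values of 2.33, 1.29 and 5.33% in control F0, and Rusf1 (chr7:128297001-128298000) with 7.39 ± 0.414% (n = 5) and 4.92 ± 1.16% (n = 3). Their exact permutation p was 0.0179, two-sided, the smallest that 3 against 5 mice allow and reached by the choice, and their F test q was 0.572 to 0.615. These levels used every position covered in both control groups, 37 at Grip1 and 24 at Rusf1. Over the 26 positions of the rule, Grip1 reached 4.29% in control F0 and fell to 3.62% in control F1. Over the 23 of Rusf1 these values were 6.48 and 6.46%, so the groups overlapped at both. At G730013B05Rik they still did not. Without control F0 replicate 3 the difference at G730013B05Rik fell from 2.53 to 1.36 points, and at Grip1 it went from -3.27 to -13.3 points at a minimum of 20 reads. The age groups also differ in generation. No label says how the F0 males relate to the F1 mice. The study states that control offspring were bred from 3 control males, and that F0 sperm was taken late because the males were needed for breeding.

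Among the F0 mice, 2737 members had positions with 10 or more reads in all 6 libraries, with a median of 7 such positions. The rule did not use these libraries. The positions compared were all those of a window covered in them, whether or not they counted for the rule. Of these, 13 were called in SSCT F0 against control F0, or 0.475%, against 10% of the 19867 windows tested. At over 10 points there were 118, or 4.31%, against 20.5%. The F test called 0, against 0% of all windows, and at an unadjusted p under 0.05 it held 551 (20.1% against 20.7%). All 13 were higher in SSCT F0, and SSCT F0 replicate 3 was the highest of the 6 libraries in each. In 10 of them every other library was under 10%, and 8 were compared over 1 to 3 positions. In the window at Unc79 a single position was compared, with 30, 3.64 and 100% in SSCT F0 and 2.94, 10.2 and 15.8% in control F0. Values near 50 or 100% in replicate 3 recurred, such as 49.8% in Tfdp2 and 49.7% in Rce1, each over 2 positions at which the other SSCT F0 mice read 0.0%.

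Leaving out replicate 3 brought many more positions into the comparison and a different picture. Then 1 of 3635 members was called, against 10.1% of windows, and 4 passed 10 points, against 22.4%. With SSCT F0 replicate 1 alone the limits were passed by 1 of 3636, against 7.95%, and 3 passed 10 points, against 17.5%, but with 1 mouse the test compares reads of that library only and has no spread between SSCT F0 mice. The called window without replicate 3 was chr15:79828001-79829000 in the span of Cbx6, which encodes a polycomb chromobox protein, and of the overlapping readthrough gene Npcd, so reads cannot be given to one of them. It was not among the 13. Without replicate 3 it had 67.5 and 40.2% in SSCT F0 replicates 1 and 2 and 4.44, 2.59 and 1.75% in control F0. These levels rest on 27 positions covered in each of these libraries. At most 6 of them are positions of the rule, since replicate 2 covered only 6 of those. Over the 27 positions of the rule, as far as each library had 10 reads, replicate 1 had 61.0% on 18 positions, 15 of them over 20%, replicate 2 had 58.2% on 6 positions and replicate 3 had 0.0% on 6. Control F0 had 2.14, 4.28 and 3.94% on all 27, and the 20 offspring a lowest, median and highest level of 0.953, 2.96 and 8.13%. Replicates 1 and 2 were thus high and apart from all other mice, and no offspring was near them. Replicate 3 was not high on the 6 positions it covered, which need not be those that were high in the others. With 2 SSCT mice against 3 no exact test can pass the threshold.

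The other windows past 10 points were of several kinds. In Tram1 (chr1:13589001-13590000), of protein transport into the endoplasmic reticulum, only replicate 2 was high, with 45.3% against 0.362% in replicate 1 and 0.608, 1.11 and 1.98% in control F0. Scarf2 (chr16:17802001-17803000), a scavenger receptor gene, likewise had 29.2% in replicate 2 and 3.31% in replicate 1. In the window of BC048644 and Car5a (chr8:121916001-121917000), which was at 15.5% in the offspring (10.7 to 20.5%), replicates 1 and 2 had 38.3 and 30.2% and control F0 18.3, 15.4 and 13.9%. With replicate 1 alone, chr12:19175001-19176000, in no gene span, had 28.3% against 14.9, 11.9 and 12.6%. These windows were named after their values were seen.

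With all 6 libraries and at least 10 positions compared, 2 of 985 were called, Bdnf and Tmem132d. At the start of Bdnf (chr2:109677001-109678000), the gene of a neurotrophin, control F0 had 1.62, 2.64 and 2.29% and SSCT F0 had 5.96, 8.47 and 41.6% over 11 positions. The groups did not overlap, the exact permutation p was 0.1, the smallest that 3 against 3 mice allow, and the F test q was 0.256. Those 11 positions are the ones covered in all 6 libraries, replicate 3 included. Over the window's own 23 positions, as far as each library had 10 reads, SSCT F0 replicates 1 and 2 had 3.6 and 4.07% and control F0 had 3.57, 2.96 and 1.85%. The separation of replicates 1 and 2 from control F0 was thus nearly gone at Bdnf. Replicate 3 still had 48.7% there, on 10 of the 23 positions. In Tmem132d the SSCT F0 mice had 0.0, 1.83 and 44.2%.

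In windows without ties, chance alone would separate 3 against 3 mice at a rate of 0.1. The SSCT F0 mice and control F0 mice did not overlap in 316 members, or 11.5%, against 10.9% of all windows. Of these members, 279 were lower in SSCT F0 (10.2% against 9.41%) and 37 higher (1.35% against 1.48%). In 125 of the 279, replicates 2 and 3 were both at exactly 0%, and in 18 the group means differed by more than 5 points. Without replicate 3, 868 members did not overlap (23.9% against 18.6% of all windows), 453 of them lower in SSCT F0. The libraries themselves differed in the same direction. On 655 members with 10 or more positions in each F0 library, the share at exactly 0% was 2.29, 22.7 and 28.2% in SSCT F0 replicates 1, 2 and 3, against 2.60, 0.153 and 1.53% in control F0 and 0.611 to 4.89% in the offspring. The share over 5% was 2.60, 8.40 and 14.7%, against 2.75, 1.83 and 2.44% in control F0 and 1.68 to 3.21% in the offspring. Replicates 2 and 3 therefore had more windows at both ends, and replicate 1 had values like those of the other mice. These libraries also had the fewest positions and the least input, and the part of this in the result was not tested.

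**Figure D5:**
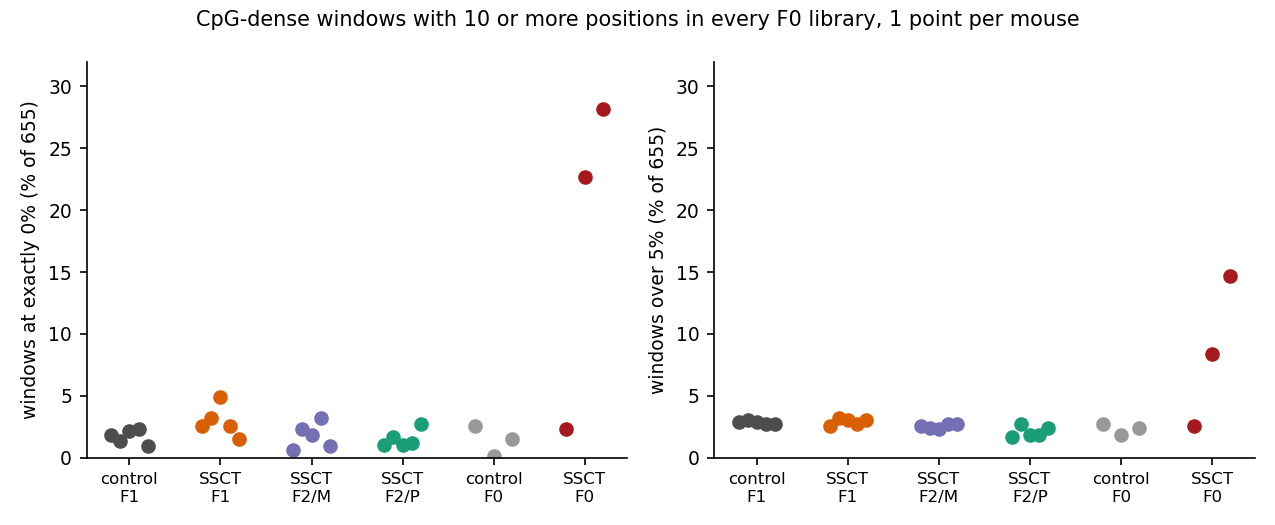
Share of member windows at exactly 0% (left) and over 5% (right) among the 655 with 10 or more positions in every F0 library (y axes, %), 1 point per mouse, by group (x axis). SSCT F0 replicates 2 and 3 lie apart at 22.7 and 28.2% on the left and 8.40 and 14.7% on the right, and SSCT F0 replicate 1 lies with the other libraries.

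DNA of cells other than sperm would carry methylation at some of these places, and in the W/W-v hosts the somatic cells are those of the recipient. Of 13 germline gene promoters, which are methylated in somatic cells, 11 had a measured start window, none of them a member. Their median was 0.451, 0.0 and 16.7% in SSCT F0 replicates 1, 2 and 3, the last over 2 windows, against 3.52, 1.7 and 3.09% in control F0 and 0.766 to 3.5% in the offspring. The window of Hormad1, a protein of meiotic chromosome axes, had 6.04, 12.4 and 33.5% in SSCT F0 and 5.36, 8.99 and 6.24% in control F0. Of 16 maternally methylated imprinted genes, 8 were measured, with medians of 3.03, 0.0309 and 0.0494% in SSCT F0, the last over 5 windows, 2.49, 0.79 and 0.802% in control F0 and 0.28 to 3.05% in the offspring. Peg3 had 3.65, 11.7 and 49.8% in SSCT F0 and 0.478, 0.78 and 0.0% in control F0. Grb10 and Zrsr1 were members: Grb10 had 0.906, 0.0617 and 0.0494% in SSCT F0 against 0.625, 0.80 and 0.502%, and Zrsr1 4.13, 3.25 and 3.14% against 2.77, 2.11 and 1.41%. Plagl1 had 15.3, 0.0 and 0.0346% in SSCT F0, high in replicate 1 only, against 4.8, 2.86 and 1.1%. Over the whole lists, windows over 5% numbered 2, 2 and 1 of the germline promoters in SSCT F0 and 3, 1 and 3 in control F0, and 2, 2 and 1 of the imprinted windows in SSCT F0 and 1, 0 and 1 in control F0. The part of somatic DNA in the F0 results was not tested. The start windows of 3 of 4 paternally methylated imprinted genes were measured and had medians of 0.0 to 5.16% in the offspring. A start window need not be the methylated control region, so these values do not bear on the content of sperm.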

How the data were processed

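Sperm of 26 mice was analysed by RRBS with 50 bp single reads. According to the submitters' processing notes the reads were handled with FastQC, Trim Galore 0.4.1, Bismark 0.20.0 and methylKit 1.7.0 on GRCm38 (mm10). Per library the authors deposited, for each CpG position and strand, the coverage as a count of reads and the methylated fraction of them. Fraction times coverage was within 0.05 of a whole number at all but 33 entries and was rounded to methylated reads. The deposited values include the authors' alignment and calling, and reads carry no molecular identifiers, so counting error is a lower limit of the error.

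Window methylation was the methylated reads over the reads of positions with 10 or more reads in every library of a fit. The logistic model, its chi-square likelihood-ratio test with Benjamini-Hochberg q over all windows (limit 0.01, difference over 25 points) and an F test scaled by Pearson dispersion were coded in Python 3.11.15 with numpy 2.4.6 and scipy 1.17.1, and tested on simulated data. The replicate block and other alternatives are listed in the closing part. Groups came from the sample titles. The members, the gene and marker lists and the rule for named windows were chosen with earlier results of these data known. Named were the windows with the most positions, nearest the limit, with the largest SD, in the longest runs, with the largest difference among those without overlap, and up to 4 members of each gene list. Other windows that are named (Suz12, Kmt2d, the Pax2 window with the higher level, those with methylated positions, the deep windows, the called F0 windows and the printed promoters) were chosen after their values were seen. Genes and promoters were matched by coordinates to RefSeq tables of GRCm38.p6. No library was a copy of another, since the mean chi-square was at least 4.48 in all 325 pairs of libraries. Mice with the same replicate number did not deviate together (r from -0.127 to 0.0718 over 30 pairs of offspring groups and -0.00999 to 0.0386 in 3 pairs of F0 mice), so numbers were not taken as pairs.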

Additional observations from a re-analysis of the deposited data

Results flagged for a closer look

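Single mice stood apart from the other 4 of their group in 7 of 156 sets of values examined by Dixon's criterion, and chance alone gives about 1 in 20. The mean over all members was 1.78% in SSCT F2/M replicate 3 and 1.7 to 1.72% in the rest of that group. In SSCT F1, replicate 4 had 32.5% at the non-member Mapk4 window (others 21.7 to 23.8%), replicate 2 had 3.86% at Kmt2a (others 1.33 to 1.81%), and replicate 3 had 6.30% at Fam229a (others 2.92 to 3.79%), 1.79% at Grip1 (others 4.44 to 5.20%) and 5.34% at Dll1 (others 1.57 to 2.58%). In SSCT F2/M, replicate 4 had 3.44% at Bdnf (others 1.81 to 1.97%).

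Reads of the control DNA added to each library lie outside the comparisons. Per 1000000 reads, they made up 915 in SSCT F0 replicate 1, 13869 in replicate 2 and 57370 in replicate 3, against 439 to 523 in control F0.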

How the results depend on the processing

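The number of members was 3636 with at least 10 reads, 8921 with at least 5 and 173 with at least 20, and 3695 to 4049 when 1 library was left out. It stayed within 1.5 times under limits of 10 and 30%, merged strands (2517), windows moved by 500 bp and a cap on coverage. In the offspring 0 members were called under every alternative, including the names of the study's clustering diagram, the F test, each mouse left out and the replicate block. This count was largely set by the low level of the members. In F0 the 13 calls became 0 with the F test, 118 with a limit of 10 points, 1 to 19 with 1 library left out (1 without SSCT F0 replicate 3, the Cbx6 window), and 13 with the replicate block. SSCT F0 replicate 1 alone gave 1 and members with 10 or more positions compared gave 2, both alternatives chosen after seeing the data. Control F0 against control F1 gave 1 call with the coverage cap, the Rn18s-rs5 window reduced to 1 of 31 positions with a difference of 27.9 points. Group means of member levels were 1.7 to 1.77%. Summing all reads, which weights deep windows, gave 4.82% in control F1, 4.71% in SSCT F1, 4.39% in SSCT F2/M, 3.59% in SSCT F2/P, 5.71% in control F0 and 4.40% in SSCT F0. Without the members over 200 reads per position, an alternative also added after seeing the data, these were 1.67, 1.66, 1.67, 1.66 and 1.68% in the first 5 groups. With at least 20 reads control F1 had 1.74%. Means with 1 library left out were 1.72 to 1.73% in control F1 and also in SSCT F1, from 1.71 to 1.73% in SSCT F2/M, 1.7 to 1.71% for SSCT F2/P, 1.72 to 1.76% in control F0 and 1.72 to 1.83% in SSCT F0. Of the 12 windows named for group differences in control F1 comparisons, 7 no longer had an exact permutation p under 0.05 at another read minimum and none changed direction. At 10 reads a position in 1 mouse resolves steps of 10 points, so small differences rest on the sum over a window.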
